A study of Mus musculus with 11 samples.

Results

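The 4 libraries described here are the young samples of batch A in a bulk RNA sequencing series of 11 libraries from cultured mouse mesenchymal stem cells (MSCs, stromal cells of bone that can form osteoblasts, adipocytes and chondrocytes). They were chosen by the label young and batch A alone, and their genes were ranked by mean level without any contrast. The labels give an age of 3 to 5 months, polyadenylated RNA and culture at 2% oxygen in αMEM with 10% FBS, and batch B holds 2 further young libraries with the same labels. The old groups, used once below, comprise 2 libraries in batch B and 3 in batch C with an age of 18 to 22 months. According to the methods of the study, which describe its oxygen experiments, hind limb bone chips of wild-type C57BL/6N mice were digested with collagenase, and cells without CD45 and TER-119 but with Sca-1 and CD140a were sorted. No transgene or treatment is given for any group. It is not stated whether the 4 libraries came from separate mice or cultures, so that the spread between them may be partly technical. The libraries held 20315934, 13111173, 13420141 and 13291014 counts in replicates 1 to 4. Replicate 1 was therefore the deepest, and the other 3 were close to each other. Levels are given as CPM, the counts of a gene scaled to 1000000 counts per library with TMM factors. A level made of 3 counts, used here as the limit of detection, was 0.166 to 0.253 CPM.

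MSCs of bone lie along the inner bone surface and around vessels, lay down collagenous matrix and secrete factors that act on blood-forming cells and osteoclasts. They are commonly recognised by the surface proteins Sca-1 and CD140a, and they express mesenchymal transcription factors of the Runx, Prrx and Twist families. At low oxygen the transcription factor HIF-1 is stabilised and binds to short promoter elements of genes for glycolysis and for adaptation to low oxygen.

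The genes of the labelled cell type were found at clear levels in each library. Ly6a (ENSMUSG00000075602, chromosome 15, 74994877 to 74998031 on GRCm38, as for all positions here), which encodes Sca-1, was at 528, 428, 419 and 448 CPM. Pdgfra (ENSMUSG00000029231, chromosome 5, 75152292 to 75198215), which encodes CD140a, was at 182, 227, 164 and 184 CPM. The 4 values of either gene lay within a factor of 1.39, with replicate 1 highest for Ly6a and replicate 2 highest for Pdgfra. Ptprc, which encodes CD45, was at 9.30, 14.9, 17.8 and 13.4 CPM, and was thus low but detected in each library. Of 19 other surface genes used for stromal cells, 17 were at or above 1 CPM in all 4 libraries. Per kilobase of transcript, the highest were the integrin chain gene Itgb1 at 297 ± 25.2 CPM per kilobase, the tetraspanin genes Cd81 at 286 ± 16.97 CPM per kilobase and Cd63 at 259.9 ± 20.98 CPM per kilobase, and Thy1, which encodes CD90, at 168 ± 42.4 CPM per kilobase, although with all exons of a gene joined, a length described below, Pdgfrb exceeded Thy1. Among markers used for subsets of marrow stroma, Lepr, the leptin receptor gene, varied from 2.97 to 15.01 CPM, Cd200 was at 1.91 ± 0.849 CPM (SD, n = 4), and Ngfr was at 0.0821 ± 0.0949 CPM (SD, n = 4), which is below the level of 3 counts.

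In all, 21129 genes had at least 1 count in any of the 4 libraries and 15712 had at least 1 count in each. At or above 1 CPM in all 4 libraries there were 12410 genes, of which 11682 were protein-coding. The mean level reached 10 CPM for 8970 genes, 100 CPM for 1826 genes and 1000 CPM for 103 genes. The RNA was concentrated in few genes. The 10 most abundant genes held 18.9% ± 0.521 of all counts (SD, n = 4), the 100 most abundant 35.9% ± 0.50 (SD, n = 4), and the 1000 most abundant 64.8% ± 0.236 (SD, n = 4). The 84 genes of the collagen, matrix glycoprotein and matrix enzyme lists together held 24.3% ± 0.749 of counts (SD, n = 4), compared with 4.87% ± 0.497 for 80 ribosomal protein genes (SD, n = 4).

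The most abundant transcripts were those of the fibrous matrix. Col1a1 (ENSMUSG00000001506, chromosome 11, 94936224 to 94953042), which encodes a chain of type I collagen, the main fibre of bone, was first, at 56347, 52340.1, 61701 and 53491 CPM. Fn1, which encodes the adhesive glycoprotein fibronectin, followed at 37056, 38548, 37535 and 32766 CPM. Col1a2, the partner chain of type I collagen, was at 34224, 36222, 35639 and 34003 CPM. The 3 genes each stayed within a factor of 1.18 between libraries. Thbs1, which encodes the matrix glycoprotein thrombospondin-1, was at 29695, 32057, 27029 and 24261 CPM, with replicate 2 highest and replicate 4 lowest. Lox, the enzyme that crosslinks collagen and elastin, followed at 11991 ± 1026 CPM (SD, n = 4), and then Sparc, which encodes the collagen-binding protein osteonectin, at 11251 ± 333 CPM (SD, n = 4). The ranks from 7 to 20 were held by the collagen genes Col3a1, Col5a1, Col5a2 and Col12a1, the proteoglycan genes Fmod and Bgn, the cartilage and tendon matrix gene Comp, Aebp1, which encodes a collagen-binding protein, the secreted binding protein gene Igfbp4, the translation factor genes Eef1a1 and Eef2, and the cytoskeletal genes Vim, Acta2 and Actb, at 3202 to 8468 CPM on average. Comp and Col12a1 had the widest spread of the 20. Comp was at 3992, 6042, 4244 and 4474 CPM and was highest in replicate 2. Col12a1 was at 6479, 5008, 4611 and 3875 CPM and was highest in replicate 1. The remaining 18 had an SD of log2 CPM of at most 0.20.

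**Figure D1:**
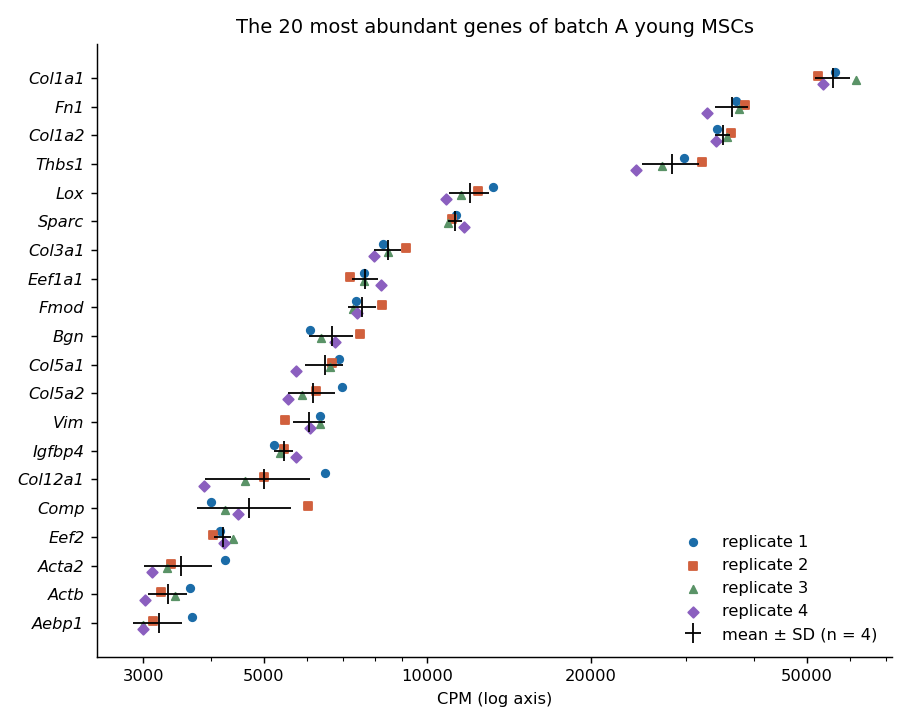
Level in CPM on a log axis of the 20 genes with the highest mean in batch A young MSCs. Points are the 4 libraries and black marks the mean ± SD; Col1a1 lies between 52340.1 and 61701 CPM, above the other 19 genes in each library.

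Longer transcripts give more reads, and levels of different genes were therefore compared per kilobase of the longest annotated transcript. The length of all annotated exons joined, which is longer for genes with many isoforms, was tried as well after the data had been seen, and gave levels over 1.5 times lower for 40 of the 224 genes named. Col1a1 stayed first at 9438 ± 704 CPM per kilobase, and Col1a2 was second at 6549 ± 202 CPM per kilobase. Sparc at 4892 ± 145 CPM per kilobase and Thbs1 at 4833 ± 576 CPM per kilobase followed and did not differ beyond their spread. This order depended on the length used. With all exons joined, Col1a1 was still first at 8528 CPM per kilobase, but Thbs1 at 4653 lay above Fn1 at 3122, Sparc at 2970.2 and Col1a2 at 2818 CPM per kilobase. Fn1, second by CPM, was at 4387 ± 307 CPM per kilobase, next to Rplp1, a ribosomal stalk protein gene, at 4555 ± 454 CPM per kilobase, and the translation factor gene Eef1a1 at 4284 ± 232 CPM per kilobase. With pseudogenes and predicted genes passed over, then came Lox at 2529, Bgn at 2506, Fmod at 2432, Rplp0 at 2183, Lgals1, which encodes galectin-1, at 2084, Vim at 2071 and Comp at 1940.4 CPM per kilobase on average, although Bgn was at 1095 CPM per kilobase with all exons joined. Of the 20 genes with the highest mean CPM, 11 were also among the 20 highest per kilobase. Among the mitochondrial genes, mt-Nd4l was the highest at 4449 ± 390.5 CPM per kilobase. The mitochondrial values are uncertain, because 4 nuclear copies of mitochondrial genes on chromosome 1 held 0.768% ± 0.0619 of counts (SD, n = 4), about as much as the 0.733% ± 0.0579 held by the 11 mitochondrial genes analysed (SD, n = 4). Reads of near-identical copies can be divided between them, and mt-Co2, mt-Atp6 and mt-Atp8 were at only 2.78, 0.421 and 4.796 CPM on average.

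All 20 collagen genes examined were at or above 1 CPM in all 4 libraries, 17 had a mean of at least 100 CPM and 9 of at least 1000 CPM. Next to type I, Col3a1 was at 1522 ± 88.2 CPM per kilobase, and the genes of type V collagen, which sets the width of type I fibres, were at 928 (Col5a2) and 770.2 (Col5a1) CPM per kilobase. Col6a1 and Col6a2, the beaded filament chains, were at 694 and 481, whereas their partner Col6a3 was at 107 CPM per kilobase. Col2a1, the gene of the cartilage fibre collagen, was at 1049, 812, 1028 and 994 CPM, and was thus abundant in each library. Col10a1, which marks hypertrophic cartilage cells, was at 2.96 ± 1.03 CPM (SD, n = 4). The basement membrane chain genes Col4a1 and Col4a2 were at 46.1 and 65.5 CPM per kilobase. For 11 of the 18 collagen genes with a mean of at least 10 CPM, replicate 2 was the highest library, and for 10 replicate 4 was the lowest. Over all 8970 genes with a mean of at least 10 CPM, replicate 2 was the highest for 26.9% and the lowest for 28.8%, replicate 1 the highest for 32.8% and the lowest for 24.9%, and replicate 4 the lowest for 26.3%.

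All 33 genes of matrix glycoproteins and proteoglycans were at or above 1 CPM in all 4 libraries, and 12 had a mean of at least 1000 CPM. Below Sparc, Thbs1, Fn1, Bgn, Fmod and Comp lay Prelp, a proteoglycan gene of cartilage and bone, at 751 ± 79.3 CPM per kilobase, Ecm1 at 609 ± 41.2 CPM per kilobase, Efemp2, which encodes an elastic fibre protein, at 438 ± 10.46 CPM per kilobase, and Mgp, an inhibitor of mineral deposition, at 362 ± 59.4 CPM per kilobase. Dcn and Lum, which encode the proteoglycans decorin and lumican, were at 55.1 and 79.5 CPM per kilobase, far below their relatives Bgn and Fmod. Replicate 2 was the highest library for 23 of 32 of these genes. Postn, which encodes periostin, was at 702, 975, 459.7 and 641 CPM, with replicate 2 highest and replicate 3 lowest. Of 31 matrix enzymes and inhibitors, 29 were at or above 1 CPM in all 4 libraries. Beyond Lox, the highest were Serpinh1, the collagen chaperone, at 1174 ± 54.2 CPM per kilobase, the metalloproteinase inhibitor gene Timp1 at 1164 ± 219.8 CPM per kilobase and Serpinf1, which encodes an inhibitor of vessel growth, at 891 ± 83.3 CPM per kilobase. The related inhibitor genes Timp2 and Timp3 were at 744 ± 38.92 CPM per kilobase and 534 ± 33.5 CPM per kilobase. Mmp2 was the highest of the metalloproteinase genes at 267 ± 33.6 CPM per kilobase, followed by Mmp14 at 125 and Mmp13 at 88.9 CPM per kilobase, whereas Mmp9 was at 0.325 CPM and Mmp10 at 0.0138 CPM.

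Of 84 secreted signalling genes in the table, 73 were at or above 1 CPM in all 4 libraries, 34 had a mean of at least 100 CPM and 6 of at least 1000 CPM. Igfbp4, which binds and restrains insulin-like growth factors (IGF), led the list, and was at 5227, 5445, 5345 and 5729 CPM, or 1419 ± 56.0 CPM per kilobase. Igfbp2 was at 535 ± 41.1 CPM per kilobase and Igfbp6, which prefers IGF2, at 293 ± 4.65 CPM per kilobase. The ligands were lower, with Igf1 at 28.2 and Igf2 at 24.6 CPM per kilobase. Ptx3, a soluble pattern recognition protein, was at 786 ± 93.2 CPM per kilobase, Gas6, the ligand of the receptors Axl, Tyro3 and Mertk, at 757 ± 157 CPM per kilobase, and the cytokine gene Mif at 487 ± 65.8 CPM per kilobase.

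Factors that act on blood-forming cells and on osteoclasts differed widely in level. Csf1, which sustains macrophages and osteoclast precursors, was at 2184, 1825, 1755 and 1677 CPM. Cxcl12, which retains haematopoietic stem cells in the niche, was at 928, 1822, 1547 and 1934 CPM, with replicate 1 well below the other 3. Kitl, the stem cell factor gene, was at 59.7, 69.6, 50.7 and 61.9 CPM. Per kilobase the 3 genes stood at 445, 277 and 10.7 CPM. Tnfrsf11b, which encodes the decoy receptor osteoprotegerin, was at 261, 97.8, 139 and 129.8 CPM, and Tnfsf11, which encodes its ligand RANKL, at 5.65, 6.08, 5.53 and 6.42 CPM. Tnfrsf11b was the higher of the pair in each library, and its level in replicate 1 lay above that in the other 3. Of the inflammatory cytokines, Il6 was at 0.456 CPM, Lif at 1.62 CPM and Il11 at 0.908 CPM on average, and Csf3 had 0 counts in each library, which allows up to 3 counts per library. Spp1, which encodes osteopontin, was at 282 ± 38.5 CPM per kilobase.

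Several antagonists of Wnt signalling were more abundant per kilobase than its ligands. Sfrp2, a secreted Wnt inhibitor, was at 362, 1134, 1059 and 872 CPM, with replicate 1 far below the other 3, or 428 ± 174 CPM per kilobase. Dkk3 was at 212 ± 14.5 CPM per kilobase and Sfrp1 at 92.1 ± 10.4 CPM per kilobase, whereas Dkk1, the inhibitor of the coreceptors Lrp5 and Lrp6, was at 0.0211 CPM, below the level of 3 counts. Among ligands, Wnt5a was at 16.3 ± 0.609 CPM per kilobase, Wnt5b at 7.26, and Wnt10b and Wnt4 at 0.410 and 0.327 CPM per kilobase. Rspo3, which amplifies Wnt signals, was at 37.7 ± 7.28 CPM per kilobase. In the TGF-β family the highest ligand genes were Tgfb3 at 48.4 and Bmp4 at 44.2 CPM per kilobase, and the inhibitor genes Fst and Grem1 were at 42.5 and 6.22 CPM per kilobase. Angiogenic ligand genes were led by Vegfd at 63.9, above Vegfa at 21.5 CPM per kilobase.

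**Figure D2:**
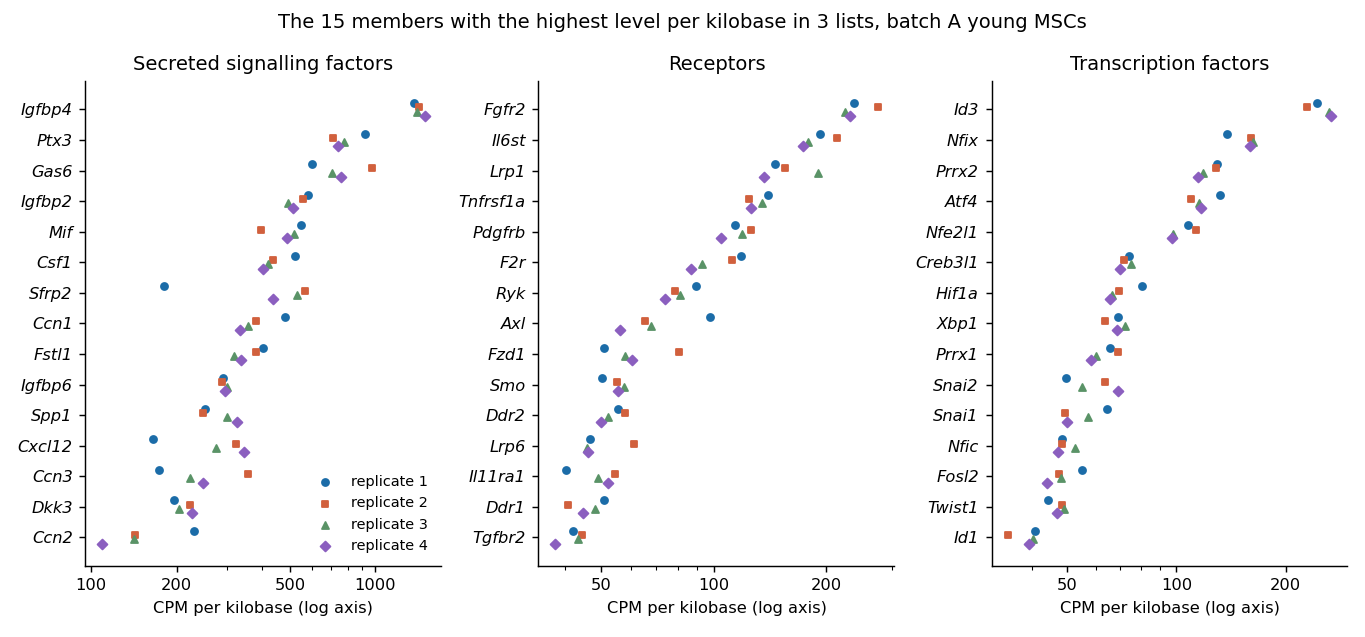
Level in CPM per kilobase of transcript, on a log axis, of the 15 members with the highest mean in the lists of secreted signalling factors, receptors and transcription factors. Points are the 4 batch A young libraries; for Sfrp2, Cxcl12 and Ccn3 replicate 1 lies apart below the others, while Igfbp4 and Igfbp6 nearly coincide in all 4.

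Of 93 receptor genes, 82 were at or above 1 CPM in all 4 libraries. Fgfr2, a fibroblast growth factor receptor, was the highest per kilobase at 242 ± 22.8 CPM per kilobase, with 1049, 1218, 992 and 1022 CPM, although annotated exons of it overlap Ctbp2 by up to 210 bases. With all exons joined, Fgfr2 was at 104, below Il6st at 148, Lrp1 at 131, Pdgfrb at 115 and Tnfrsf1a at 109 CPM per kilobase. With the longest transcript it stood above Fgfr1 at 39.8, Fgfr3 at 6.27 and Fgfr4 at 0.0905 CPM per kilobase in each of the 4 libraries. Il6st, the shared signalling chain for interleukin 6 type cytokines, was at 189 ± 17.9 CPM per kilobase, with its partners Osmr at 33.3, Il11ra1 at 49.0, Lifr at 5.59 and Il6ra at 0.798 CPM per kilobase. Next came Lrp1, a large endocytic receptor gene, at 156 ± 23.2 CPM per kilobase, and the tumour necrosis factor receptor gene Tnfrsf1a at 131 ± 7.59 CPM per kilobase. Among the platelet-derived growth factor receptors, Pdgfrb was at 116 ± 8.72 CPM per kilobase and Pdgfra at 27.6 ± 3.91 CPM per kilobase, so that the sorting marker was the lower of the pair. F2r, the thrombin receptor gene, was at 102 ± 14.8 CPM per kilobase, and the collagen receptor genes Ddr2 and Ddr1 at 53.9 and 46.2 CPM per kilobase.

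Wnt receptor genes were represented by Ryk at 80.9, Fzd1 at 62.5, Lrp6 at 49.98, Fzd2 at 37.5, Fzd8 at 29.8, Fzd7 at 28.9 and Lrp5 at 13.2 CPM per kilobase. Axl, the receptor for Gas6, was at 417, 279, 290.4 and 239.7 CPM and was highest in replicate 1. Its relatives Tyro3 and Mertk were at 3.34 and 0.975, against 71.9 CPM per kilobase for Axl. Smo, the hedgehog signal transducer, was at 54.5 and Ptch1 at 2.94 CPM per kilobase. Csf1r, the receptor for Csf1, was at 107, 153, 263 and 185 CPM, and belonged to a set of macrophage genes described below. Receptors at or near the detection level were Cxcr4 at 0.229 CPM, Kit at 0.433 CPM, the endothelial receptors Kdr at 0.518 CPM and Flt1 at 0.421 CPM, and Epor at 0.202 CPM. The ligands of Kit and Cxcr4 were thus present, and their receptors were at less than 1 CPM in each library. Replicate 2 was the highest library for 38 of the 71 receptor genes with a mean of at least 10 CPM, and replicate 1 the lowest for 33.

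Of 133 transcription factor genes in the table, 117 were at or above 1 CPM in all 4 libraries, 29 had a mean of at least 100 CPM and 0 reached 1000 CPM. Id3, an inhibitor of basic helix-loop-helix factors, was the highest per kilobase at 251 ± 17.7 CPM per kilobase. The nuclear factor I gene Nfix followed at 155 ± 11.8 CPM per kilobase. Prrx2 and Prrx1, homeobox genes of limb mesenchyme, were at 123 ± 7.52 CPM per kilobase and 63.1 ± 4.88 CPM per kilobase. Regulators of the stress and secretory responses were also among the first, with Atf4 at 119 ± 9.55 CPM per kilobase, Nfe2l1 at 104 ± 7.95 CPM per kilobase, Creb3l1, which controls collagen secretion in osteoblasts, at 72.7 ± 2.28 CPM per kilobase, and Xbp1 at 68.4 ± 3.57 CPM per kilobase. The mesenchymal factors Snai2, Snai1 and Twist1 were at 59.2, 55.1 and 47.2 CPM per kilobase, and Twist2 at 0.389. Hif1a, the oxygen-regulated subunit of HIF-1, was at 380.3, 328, 314 and 310.5 CPM. Epas1, which encodes the related HIF-2α, was lower in each library, at 19.7, 27.4, 30.0 and 36.1 CPM.

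Genes of hind limb identity were present. Pitx1, which specifies hind limb identity, was at 64.2, 35.2, 71.4 and 60.1 CPM, and Tbx4, its hind limb partner, at 18.0, 17.9, 18.8 and 17.4 CPM. Tbx5, the fore limb counterpart, was at 1.05, 1.01, 2.81 and 1.38 CPM. Tbx4 exceeded Tbx5 in each library. Hoxa10 at 77.2 ± 2.81 CPM (SD, n = 4) and Hoxc10 at 51.5 ± 2.38 CPM (SD, n = 4) were the highest of the listed Hox genes by CPM, followed by Hoxd8 at 20.9, Hoxa9 at 14.9, Hoxa11 at 12.5 and Hoxd9 at 10.7 CPM, and Hoxa13 was at 5.26 CPM. Hoxd13 and Hoxb2 were at 0.151 and 0.159 CPM, and the pluripotency factor gene Nanog was at 0.153 CPM, all below 3 counts per library on average.

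Lineage regulators of bone, cartilage and fat were found together. Runx2, required for osteoblast formation, was at 58.0, 65.8, 57.6 and 56.2 CPM, and Sp7, which acts after Runx2, at 30.2, 42.5, 35.8 and 39.4 CPM. Sox9, the regulator of cartilage cells, was at 114, 136, 125 and 150.2 CPM. Pparg, the regulator of adipocytes, was at 16.4, 23.3, 20.97 and 20.5 CPM. Per kilobase the order was Sox9 at 31.7 ± 3.75 CPM per kilobase, Sp7 at 11.9 ± 1.702 CPM per kilobase, Pparg at 9.54 ± 1.35 CPM per kilobase and Runx2 at 9.19 ± 0.667 CPM per kilobase, and the last 3 lay close to each other. This closeness may depend on the length used. With all exons joined, Pparg and Runx2 fell by more than their spread, while Sox9 and Sp7 did not. Of 14 osteoblast lineage genes, 9 were at or above 1 CPM in all 4 libraries, and 3 had a mean of at least 100 CPM. These were Col1a1, Spp1 at 424 ± 58.0 CPM (SD, n = 4) and Alpl, which encodes alkaline phosphatase, at 165 ± 14.1 CPM (SD, n = 4). Ibsp, which encodes bone sialoprotein, was at 18.6 ± 5.01 CPM (SD, n = 4), Dmp1 at 0.449 ± 0.290 CPM (SD, n = 4), and Bglap, the osteocalcin gene, at 0.547 ± 0.213 CPM (SD, n = 4), although reads of Bglap can be divided with its neighbouring copies. Of 15 adipocyte lineage genes, 11 were at or above 1 CPM in all 4 libraries. A mean of at least 10 CPM was reached by 9 of them and of at least 100 CPM by 2. Replicate 4 was the highest library for 1 of these 9. Among genes of mature adipocytes, Adipoq was at 0.166, 0.591, 0.495 and 3.74 CPM. Plin1 was at 0.0554, 0.169, 0.743 and 1.71 CPM, and both were highest in replicate 4. In cartilage and tendon, Prg4, which encodes the joint lubricant lubricin, was at 751, 505, 472 and 408 CPM, Tnmd, a tendon gene, at 41.2, 73.3, 49.1 and 62.3 CPM, and Acan, which encodes the cartilage proteoglycan aggrecan, at 21.4, 5.82, 8.42 and 7.39 CPM. Acan and Prg4 were highest in replicate 1, and Tnmd was lowest there.

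Glycolysis genes were abundant, and all 19 were at or above 1 CPM in all 4 libraries. Pkm, the last enzyme of the pathway, was at 2612, 1744, 2238 and 1960.1 CPM. Ldha, which converts pyruvate to lactate, was at 1602, 1051, 1406 and 1326 CPM. Both were highest in replicate 1 and lowest in replicate 2. Per kilobase, Pkm was at 879 ± 154 CPM per kilobase, Aldoa at 799 ± 58.3 CPM per kilobase, Eno1 at 776 ± 117 CPM per kilobase, Ldha at 742 ± 126 CPM per kilobase, Pgk1 at 536 ± 70.3 CPM per kilobase and Gapdh at 471 ± 62.0 CPM per kilobase. The first 4 of these overlapped in their spread, and with all exons joined Pgk1 was the highest at 436 CPM per kilobase and Eno1 was at 293. Replicate 1 was highest for 14 of 18 glycolysis genes with a mean of at least 10 CPM, and replicate 2 was lowest for 12. The summed level of the list was 13065, 9475, 11809 and 10849 CPM in replicates 1 to 4. All 26 hypoxia response genes were also at or above 1 CPM in all 4 libraries. The highest per kilobase were Fam162a, a mitochondrial protein gene, at 165 ± 26.6 CPM per kilobase, and the collagen prolyl hydroxylase genes P4ha2 at 121 ± 20.1 CPM per kilobase and P4ha1 at 111 ± 5.38 CPM per kilobase, with P4ha2 at 59.5 CPM per kilobase when all exons were joined. Bnip3, a mitophagy receptor gene, was at 43.8 ± 5.06 CPM per kilobase, Pdk1, which limits pyruvate entry into mitochondria, at 23.6 ± 2.34 CPM per kilobase, Vegfa at 21.5 ± 1.69 CPM per kilobase and Car9, a carbonic anhydrase gene, at 19.2 ± 3.22 CPM per kilobase. All libraries used here were labelled with the same oxygen level, and these levels were therefore not compared with another.

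The core of the HIF element, the 5 letters ACGTG searched on both strands, was found in the RefSeq promoter windows, from 250 bases before to 50 bases after the start on GRCm38.p6, of 12 of 19 glycolysis genes (63.2%). It was found for 16 of the 22 hypoxia response genes with a window (72.7%), compared with 5886 of 27025 genes in all (21.8%). A match is a description and not a binding site. The stretches from 130 bases before to 20 bases after the start are shown for 1 glycolysis gene and 3 hypoxia response genes, with each match on either strand in capitals, where matches that overlap are joined. Only stretches with a match were kept, and those of Pgk1 and Pdk1, which were also searched, held none. The longer window of Pgk1 did hold a match and that of Pdk1 did not. Ldha lies at chr7:46845674-46845823 on the plus strand, Bnip3 at chr7:138909487-138909636 on the minus strand, P4ha1 at chr10:59323166-59323315 on the plus strand and Fam162a at chr16:36071542-36071691 on the minus strand.
Ldha: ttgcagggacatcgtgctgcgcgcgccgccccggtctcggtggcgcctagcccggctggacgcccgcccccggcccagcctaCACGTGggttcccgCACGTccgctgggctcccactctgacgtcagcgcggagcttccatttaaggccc
Bnip3: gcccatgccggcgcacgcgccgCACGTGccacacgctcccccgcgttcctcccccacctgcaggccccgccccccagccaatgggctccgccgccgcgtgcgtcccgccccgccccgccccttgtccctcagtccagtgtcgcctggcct
P4ha1: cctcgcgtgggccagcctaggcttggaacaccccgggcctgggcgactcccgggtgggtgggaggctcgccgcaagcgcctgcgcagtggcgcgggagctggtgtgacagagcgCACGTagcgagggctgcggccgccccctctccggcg
Fam162a: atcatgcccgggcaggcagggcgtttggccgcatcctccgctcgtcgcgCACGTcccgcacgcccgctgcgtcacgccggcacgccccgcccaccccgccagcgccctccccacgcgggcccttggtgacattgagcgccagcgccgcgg

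Endothelial, erythroid, glial and epithelial genes were at or near 0, whereas macrophage genes and genes of smooth muscle type contractile proteins were detected. Of 22 macrophage and leukocyte genes, 21 were at or above 1 CPM in all 4 libraries. Their summed level was 947, 1360, 2111 and 1649 CPM in replicates 1 to 4. Lyz2, which encodes lysozyme, was at 243, 326, 415 and 363 CPM. Laptm5, a lysosomal protein gene of blood cells, was at 86.9, 138, 258 and 180.1 CPM. The complement genes C1qa, C1qb and C1qc, made by tissue macrophages, were at 83.4, 99.7 and 92.2 CPM on average. The sort given in the methods leaves out cells with CD45, which macrophages carry, and its gene Ptprc was at 9.30 to 17.8 CPM, lowest in replicate 1 and highest in replicate 3 like most of the list. In bulk RNA, more cells with these transcripts and more of these transcripts per cell cannot be told apart, and their source was not tested. The 9 endothelial genes in the table summed to 4.82 to 7.51 CPM per library, and Tie1 and Emcn had 0 counts. The 8 erythroid genes summed to 0.0554 to 0.675 CPM, and 6 of them, among them the haemoglobin genes, had 0 counts in all 4 libraries. Glial genes summed to 3.21 to 6.90 CPM and epithelial genes to 1.06 to 2.19 CPM. Of 8 osteoclast genes, 3 were at or above 1 CPM in all 4 libraries, which were Ctsk at 136 ± 3.51 CPM (SD, n = 4), Nfatc1 at 41.5 ± 3.54 CPM (SD, n = 4) and Acp5 at 1.44 ± 0.283 CPM (SD, n = 4), and Calcr had 0 counts. Of 4 skeletal muscle genes, Acta1 was at 40.8, 25.2, 30.4 and 25.3 CPM, and Myod1, Pax7 and Ckm had 0 counts. Of 14 smooth muscle type contractile genes, 13 were at or above 1 CPM in all 4 libraries and 8 had a mean of at least 100 CPM, and the list summed to 7367, 6070.4, 5809 and 5597 CPM. Acta2, the smooth muscle actin gene, was at 1726 ± 246 CPM per kilobase, the myosin light chain gene Myl9 at 304 ± 37.1 CPM per kilobase and Cnn2, a calponin gene, at 281 ± 22.7 CPM per kilobase. Myh11 at 2.22 ± 1.02 CPM per kilobase and Des at 0.383 ± 0.0810 CPM per kilobase were low. Tagln was counted at 3.88 ± 0.190 CPM per kilobase. Annotated exons of Tagln overlap Gm48529 by up to 645 bases and Pcsk7 by up to 108 bases, so that its level is uncertain.

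The 4 libraries resembled each other closely. The SD of log2 CPM, computed for the 8970 genes with a mean of at least 10 CPM, had a median of 0.13, where counting error alone gives a median of 0.064, and 95% of genes lay below 0.33. The biological coefficient of variation was 11.8%. For 126 genes (1.40%) the SD reached 0.5. Their counting error was at most 0.16, so that an SD of more than 2 times this error followed from the threshold. Replicate 1, the deepest library, was the highest for 41 and the lowest for 74 of the 126 genes, and without it 29 genes reached an SD of 0.5. Without replicate 4 the number was 206. The extremes of the variable genes thus lay mainly in replicate 1, and the part of depth in them was not tested.

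**Figure D3:**
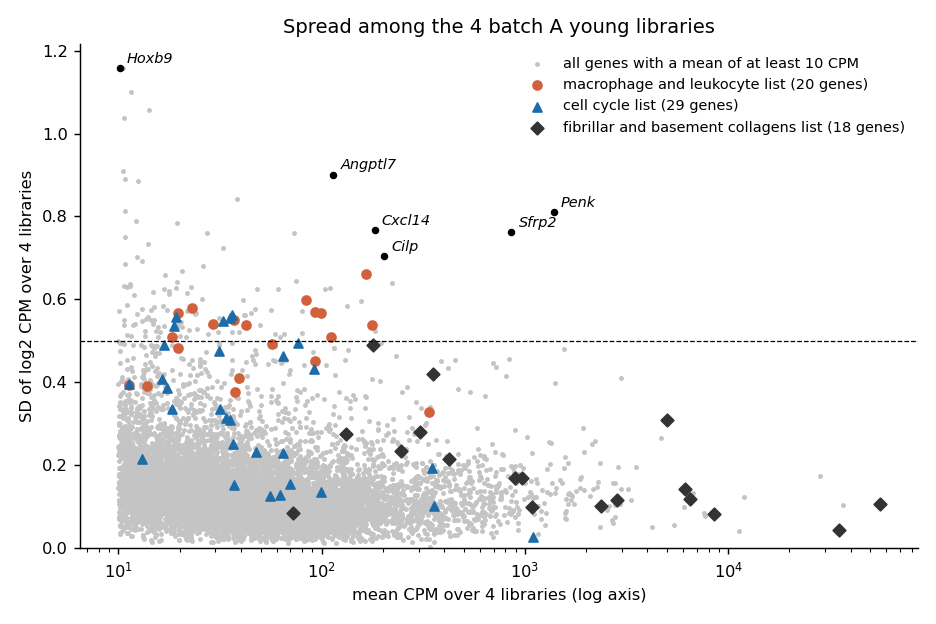
SD of log2 CPM over the 4 batch A young libraries against the mean CPM on a log axis, for 8970 genes in grey. The dashed line marks an SD of 0.5; macrophage genes (circles) lie around the line, with 12 of 20 above it, collagen genes (diamonds) all lie below it, and Angptl7, Cxcl14, Penk, Sfrp2 and Cilp lie above it at more than 100 CPM.

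The most frequent order among the variable genes, highest in replicate 3 and lowest in replicate 1, included many macrophage genes. It was seen for 50 of the 126 variable genes (39.7%), compared with 7.89% of all 8970 genes. Among the macrophage and leukocyte genes with a mean of at least 10 CPM, 12 of 20 had an SD of at least 0.5, replicate 1 was lowest for 20 of 20 and replicate 3 highest for 19 of 20. Stab1 and Mrc1, scavenger receptor genes of tissue macrophages, were at 118, 191, 339.5 and 238 CPM and at 53.2, 107, 150.1 and 103 CPM. Spi1, which encodes the myeloid factor PU.1, was at 12.6, 14.4, 30.0 and 21.5 CPM, and Trem2, a receptor gene of phagocytes, at 19.9, 25.2, 46.3 and 32.7 CPM. Wdfy4, a gene of antigen-presenting cells, was at 4.21, 9.54, 19.5 and 9.99 CPM, and Fcrls at 33.1, 68.8, 119 and 71.4 CPM. Relative to replicate 1, C1qa was at 1.45, 2.65 and 1.94, C1qb at 1.44, 2.56 and 1.80, and C1qc at 1.67, 2.58 and 1.90 in replicates 2 to 4. The 3 genes thus differed by similar factors from library to library. Cd36, a fatty acid and lipoprotein receptor gene, followed the same order at 7.98, 20.7, 28.1 and 21.2 CPM.

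The 6 letters GGAAGT, searched on both strands, which hold the core bound by PU.1 and other ETS factors, were present in the same RefSeq windows of 8 of the 13 macrophage and leukocyte genes with a window (61.5%), and in 26.5% of all genes. A match does not show binding. Windows of Laptm5 (chr4:130913186-130913335 on the plus strand) and C1qb (chr4:136886181-136886330 on the minus strand), both of which followed the order just described, are shown with the match on either strand in capitals.
Laptm5: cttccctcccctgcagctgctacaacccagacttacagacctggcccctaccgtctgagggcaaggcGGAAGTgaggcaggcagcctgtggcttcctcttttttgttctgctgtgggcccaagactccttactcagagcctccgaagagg
C1qb: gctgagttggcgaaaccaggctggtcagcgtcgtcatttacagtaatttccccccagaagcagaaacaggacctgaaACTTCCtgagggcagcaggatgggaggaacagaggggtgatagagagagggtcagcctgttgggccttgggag

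**Figure D4:**
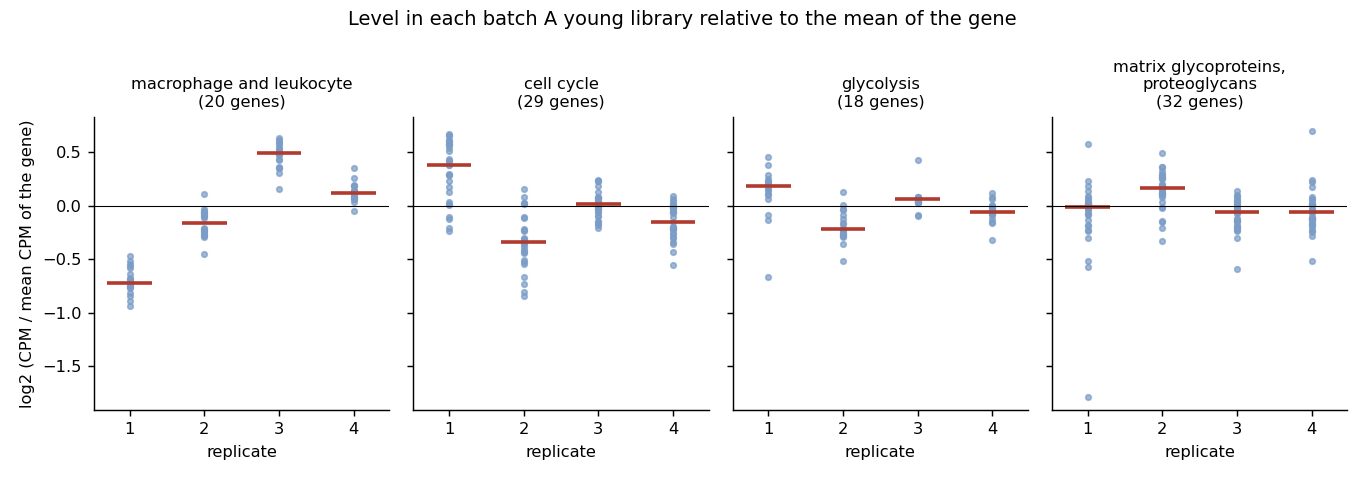
Level in each batch A young library as log2 of CPM over the mean CPM of the gene, for 4 gene lists and genes with a mean of at least 10 CPM. Points are genes and red bars list medians; the macrophage genes are all below 0 in replicate 1, the cell cycle and glycolysis medians are highest in replicate 1 and lowest in replicate 2, and the matrix median is highest in replicate 2.

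The variable genes that were highest in replicate 1 and lowest in replicate 2 numbered 22 of 126 (17.5%), compared with 12.3% of all genes, and included genes of mitosis. Ccna2 and Ccnb1, cyclins that drive entry into mitosis, were at 53.6, 20.7, 36.9 and 33.7 CPM and at 56.7, 22.4, 32.1 and 31.0 CPM. Birc5, which encodes the chromosomal passenger survivin, was at 27.4, 10.7, 19.4 and 19.4 CPM, and Cdc20, an activator of the anaphase-promoting complex, at 49.5, 19.7, 32.9 and 28.2 CPM. Of 29 cell cycle genes with a mean of at least 10 CPM, replicate 1 was highest for 22 and replicate 2 lowest for 21. The cyclin gene Ccnd2 at 1103, 1118, 1086 and 1071 CPM did not follow this order. Outside the cell cycle, the chemokine genes Ppbp at 25.3, 3.71, 6.44 and 6.74 CPM and Ccl2 at 33.6, 11.8, 20.8 and 24.9 CPM were also highest in replicate 1 and lowest in replicate 2, as were Acan and Tnfrsf11b described above.

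Those lowest in replicate 1 and highest in replicate 2 numbered 18 of 126 (14.3%), compared with 9.73% of all genes. Several encode secreted proteins. Penk, which encodes proenkephalin, was at 549, 1842, 1426 and 1722 CPM. Itgbl1, an integrin-like secreted protein gene, was at 16.9, 70.7, 30.6 and 34.3 CPM. Scg2, a granin gene, was at 3.54, 21.1, 9.66 and 8.20 CPM. In all 3, replicate 1 lay below the other libraries. Frzb, a Wnt inhibitor gene of cartilage, was at 5.65, 21.4, 12.5 and 9.50 CPM, Matn4, a matrilin gene, at 12.4, 41.4, 21.7 and 33.0 CPM, and Pi15 at 4.87, 17.6, 10.2 and 10.6 CPM. Cilp, which encodes a cartilage matrix protein, was at 101, 326, 172 and 215 CPM, and Lgr5, the receptor for R-spondins, at 14.2, 42.5, 35.5 and 38.5 CPM. The genes of this order thus included the Wnt modulators Sfrp2, Frzb and Lgr5.

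Other variable genes had orders of their own. Angptl7, which encodes a secreted angiopoietin-like protein, was at 245, 69.9, 75.7 and 66.3 CPM, and Cxcl14, a chemokine gene, at 326, 149, 164 and 89.6 CPM. Ptgs2, which encodes the inducible cyclooxygenase, was at 26.6, 7.85, 7.18 and 4.304 CPM, and Ankrd1, a target gene of mechanical signalling, at 24.5, 11.1, 8.92 and 5.52 CPM. These 4 were highest in replicate 1 and lowest in replicate 4, as were 15 of the 126 variable genes (11.9%) and 12.9% of all genes, so that this order was no more frequent among them. Eln, which encodes elastin, was at 4.10, 15.7, 13.6 and 22.9 CPM, and Aldh1a2, a retinoic acid synthesis gene, at 3.60, 11.4, 12.5 and 14.8 CPM, both highest in replicate 4 and lowest in replicate 1. Cadm1, an adhesion gene, was at 7.48, 9.45, 23.7 and 15.3 CPM and followed the order of the macrophage genes. Hoxb9, a homeobox gene of trunk and limb position, had the largest SD of all at 1.16 and was at 15.5, 15.9, 6.44 and 2.84 CPM, so that replicates 1 and 2 lay above replicates 3 and 4. Its mean of 10.2 CPM was close to the minimum of 10, and Hoxa10 and Hoxc10 differed far less, with SDs of 0.05 and 0.07. At the opposite end, chosen after the values were seen, Igfbp6 at 324, 321, 333 and 327 CPM and Bnip3l, a mitophagy gene, at 125, 127, 128 and 129 CPM were nearly the same in all 4 libraries.

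The 126 variable genes also varied in other groups of the series. Their median SD of log2 CPM was 0.43 between both batch B young libraries, where the median of all genes was 0.19, and 91 of the 126 lay above that median. In the old libraries it was 0.38 in batch B, against 0.078 for all genes, and 0.18 in batch C, against 0.074 for all genes. There 119 of the 126 in batch B and 108 in batch C lay above the median of all genes. The 126 genes and all genes were not matched for level in these comparisons.

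The batch A libraries were then compared with the 2 batch B libraries of the same age, to see which of the genes described here differed between the batches. Differences are given as log2 of batch B over batch A, so that negative values mean a higher level in batch A. The quasi-likelihood test of edgeR called 2686 of 14840 genes (18.1%) at a Benjamini-Hochberg adjusted p under 0.05, with 1393 (9.39%) higher and 1293 (8.71%) lower in batch B. The number fell to 1293 without batch A replicate 3, to 1726 without batch A replicate 4 and to 511 without batch B replicate 2, and rose to 4031 without batch B replicate 1. With total counts in place of TMM factors it was 3020, and the share of calls that were higher in batch B went from 51.9% to 66.4%. Nothing beyond the batch label distinguishes the groups in the labels, so that batch and any difference between the cultures cannot be told apart. The summed macrophage genes were at 1110 and 534 CPM in batch B, against 947 to 2111 CPM in batch A, and their part in the other differences was not tested.

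Of 20 collagen genes tested, 9 were higher and 1 was lower in batch A, but only 2 were called without batch B replicate 2. Col1a1 was at 42627 and 23942 CPM in batch B, below each batch A library, with a log2 difference of -0.73 (SE 0.22, adjusted p 0.0354). It did not pass without batch A replicate 2, 3 or 4 or without batch B replicate 2, where the log2 difference was -0.76, -0.68, -0.75 and -0.37. Col6a3 was at 522 and 286 CPM in batch B, against 1013 to 1149 CPM in batch A, with a log2 difference of -1.40 (SE 0.21, adjusted p 0.0018). Fn1, at 24709.9 and 14415 CPM in batch B, had a log2 difference of -0.88 (SE 0.21, adjusted p 0.0144), and did not pass without batch B replicate 2 at -0.54. Col1a2 had a log2 difference of -0.51 (SE 0.19, adjusted p 0.0815), and passed only without batch B replicate 1, at -0.87, among the fits that left out a library. Of 33 glycoprotein and proteoglycan genes, 7 were higher and 6 lower in batch A, with 3 called without batch B replicate 2 and 7 without batch A replicate 3. Prelp, at 1215 and 974 CPM in batch B, had a log2 difference of -1.29 (SE 0.16, adjusted p 0.00111). Of 30 matrix enzymes and inhibitors, 4 were higher and 7 lower in batch A, with 4 called without batch B replicate 2 and 7 without batch A replicate 3. Mmp13, a collagenase gene, was at 449 and 598 CPM in batch B and below this in each batch A library, with a log2 difference of 1.16 (SE 0.14, adjusted p 0.000914). The share called with all libraries was 50% of the collagen, 39.4% of the glycoprotein and proteoglycan and 36.7% of the matrix enzyme genes. Of all genes tested it was 18.1%.

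Secreted, receptor and transcription factor genes had calls in both directions. The share called was 39.0% of the secreted, 25.8% of the receptor and 20.6% of the transcription factor genes tested, so that the last lay near the 18.1% of all genes. Of 82 secreted genes, 10 were higher and 22 lower in batch A, with 15 called without batch B replicate 2 and 19 without batch A replicate 3. Grem1, an antagonist of bone morphogenetic proteins, was at 26.6, 30.6, 19.6 and 26.4 CPM in batch A and at 118 and 114 CPM in batch B, with a log2 difference of 2.19 (SE 0.15, adjusted p 1.19e-05). Angptl4, a lipase inhibitor gene responsive to fatty acids and low oxygen, was at 27.7, 29.9, 25.2 and 27.8 CPM in batch A and at 70.5 and 90.1 CPM in batch B, with a log2 difference of 1.56 (SE 0.13, adjusted p 5.25e-05). Kitl, at 105 and 119.7 CPM in batch B, had a log2 difference of 0.92 (SE 0.13, adjusted p 0.0018). Sfrp2 was at 179 and 138 CPM in batch B, below even batch A replicate 1, with a log2 difference of -2.41 (SE 0.36, adjusted p 0.00195). Of 89 receptor genes, 17 were higher and 6 lower in batch A, with 14 and 8 after scaling by total counts. The receptor calls numbered 6 without batch B replicate 2, 13 without batch A replicate 3 and 38 without batch B replicate 1. F2r, at 174 and 139 CPM in batch B, had a log2 difference of -1.10 (SE 0.16, adjusted p 0.00178), and Pdgfrb, at 400.0 and 273 CPM in batch B, had a log2 difference of -0.88 (SE 0.16, adjusted p 0.0048). Of 126 transcription factor genes, 19 were higher and 7 lower in batch A, with 12 and 10 after scaling by total counts, when 17.5% of them and 20.4% of all genes were called. Here the calls numbered 5 without batch B replicate 2 and 14 to 17 without batch A replicate 2, 3 or 4. Hif1a was at 593 and 539 CPM in batch B, above each batch A library, with a log2 difference of 0.79 (SE 0.13, adjusted p 0.00273). Of the sorting markers, Ly6a was lower in batch A, with a log2 difference of 0.67 (SE 0.14, adjusted p 0.00791), although not without batch B replicate 2 at 0.53, and Pdgfra did not pass the threshold, with a log2 difference of 0.21 (SE 0.15, adjusted p 0.338).

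Among the further lists, hypoxia response, cholesterol synthesis, cell cycle, interferon response and macrophage genes leaned to 1 side. Others did not, such as the osteoblast lineage and the cytoskeleton and housekeeping lists. The share called was 38.5% of hypoxia response, 52.9% of cholesterol synthesis and 71% of cell cycle genes, compared with 18.1% of all genes. It was 55.6% of interferon response and 40.9% of macrophage genes. Of the glycolysis genes 5.26% were called, below the share of all genes. Of 13 osteoblast lineage genes tested 53.8% were called, with 4 higher and 3 lower in batch A. When a batch A library was left out, 1 to 5 of the osteoblast lineage genes were called. Of 26 hypoxia response genes, 10 were lower and 0 higher in batch A, with 3 called without batch B replicate 2 and 5 to 6 without batch A replicate 2, 3 or 4. Bnip3, at 122 and 168 CPM in batch B against 64.3 to 84.9 CPM in batch A, had a log2 difference of 0.94 (SE 0.15, adjusted p 0.0024). In the glycolysis list 1 of 19 genes passed, which was Pgk1, with a log2 difference of 0.80 (SE 0.15, adjusted p 0.00519), while 0 passed without batch B replicate 2 and 3 without batch A replicate 1 or batch B replicate 1. Of 17 cholesterol synthesis genes, 9 were lower and 0 higher in batch A. Hmgcs1, an early enzyme of this pathway, was at 43.0, 45.5, 42.4 and 43.9 CPM in batch A and at 74.3 and 78.7 CPM in batch B, with a log2 difference of 0.83 (SE 0.11, adjusted p 0.00145). Of 31 cell cycle genes, 19 were higher and 3 lower in batch A, with 9 called without batch B replicate 2. Mki67, a marker of cycling cells, was at 97.6, 47.9, 62.3 and 51.2 CPM in batch A and at 21.6 and 18.4 CPM in batch B, with a log2 difference of -1.67 (SE 0.25, adjusted p 0.00193). The inhibitor gene Cdkn2a, which restrains entry into the cell cycle, was among the 3, at 121 and 128 CPM in batch B, with a log2 difference of 0.87 (SE 0.12, adjusted p 0.00178). Of 18 interferon response genes, 10 were higher and 0 lower in batch A, with 0 called without batch B replicate 2 and 6 without batch B replicate 1. Of 22 macrophage genes, 9 were higher and 0 lower in batch A, with 0 called without batch B replicate 2, 2 without batch A replicate 3, 15 without batch A replicate 1, 19 without batch B replicate 1 and 3 in DESeq2. Laptm5, at 83.1 and 27.9 CPM in batch B, had a log2 difference of -1.55 (SE 0.42, adjusted p 0.0231), and did not pass without batch A replicate 3 at -1.26 or without batch B replicate 2 at -0.97. In this gene batch A replicate 1 lay close to the higher batch B library.

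**Figure D5:**
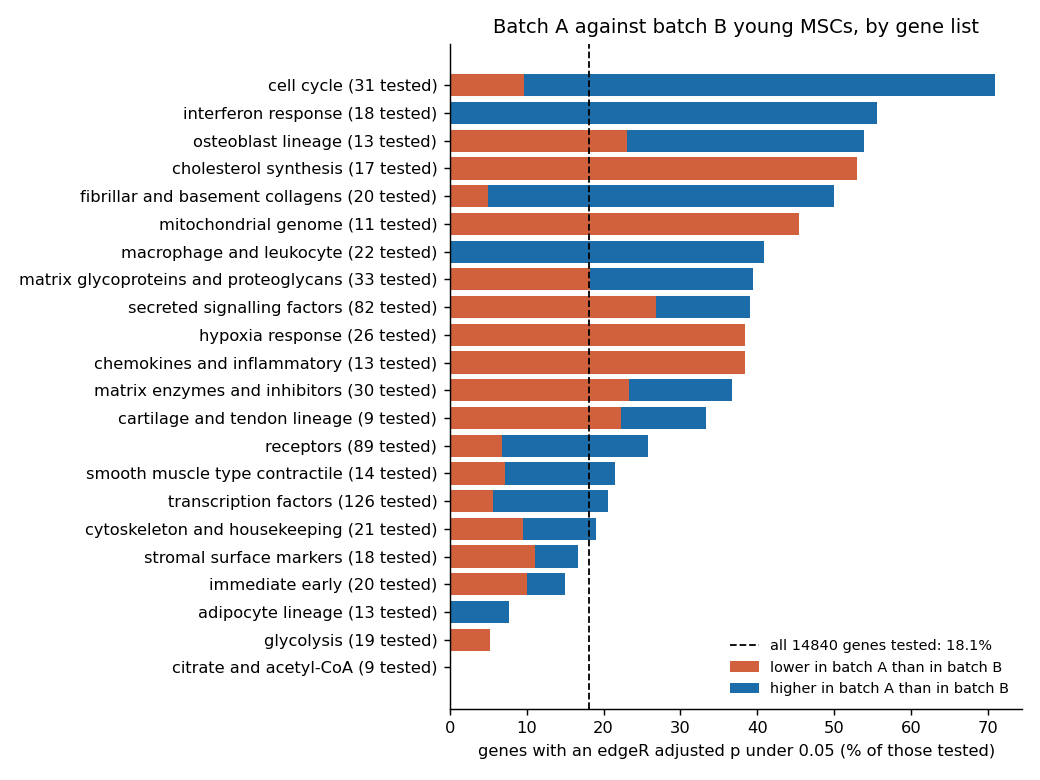
Share of the tested genes of each list with an edgeR adjusted p under 0.05 between batch A and batch B young MSCs, in percent and by direction, where a list had 9 or more tested genes. The dashed line is the share of all 14840 genes tested, 18.1%. Hypoxia response, cholesterol synthesis, chemokine and inflammatory, and mitochondrial genome genes were called only as lower in batch A. Interferon response and macrophage genes were called only as higher. The glycolysis and adipocyte lineage lists had 1 call each, lower in batch A for glycolysis and higher for adipocyte lineage.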

How the data were processed

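RNA of cultured MSCs was sequenced as single-end reads, and the authors deposited raw counts per gene for 11 libraries, made with zUMIs, STAR and featureCounts on mm10 (GRCm38). The counts were not normalised. Strandedness and the handling of duplicates are not given in the sources used here, so reads of overlapping or antisense genes cannot be told apart. Of the 224 genes named with a level, 63 have an exon that overlaps an exon of another annotated gene, and their values are uncertain to that extent. The longest such overlaps were 3284 bases for Igf2, 1733 for Timp3, 1468 for Twist2, 953 for Hoxb2 and 873 for Csf1r.

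CPM were computed with TMM factors over all 11 libraries in edgeR 4.0.16 (R 4.3.3), log2 CPM with a prior count of 2. Symbols, positions and lengths came from GENCODE M21, which matched 28179 of 28222 genes, and the 43 others held 0.0400% ± 0.00136 of counts (SD, n = 4). Levels per kilobase used the longest annotated transcript, with the length of all exons joined as an alternative added after seeing the data. Promoter sequences are those of RefSeq on GRCm38.p6. The 4 batch A young and 2 batch B young libraries were compared with edgeR's quasi-likelihood test after a filter on low counts with a minimum of 5. The scripts were tested on simulated data. Alternatives were limma 3.58.1, DESeq2 1.42.0, other scaling factors and filters, all 11 libraries in the fit, a replicate block and leaving out each library. Each pair of batch A libraries differed beyond sampling noise, with a chi-square per gene of 5.38 to 17.3.

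The libraries and gene lists were chosen with earlier results of these data known. The genes named were the 20 with the highest mean CPM, the 15 highest per kilobase, the highest per kilobase and the defining members of each list, the 20 named genes with the largest SD of log2 CPM at a mean of at least 10 CPM, and called list members with the smallest p between batches. The further variable genes, further list members and Col1a1, Col1a2, Fn1, Kitl, Pdgfrb, Laptm5 and Hmgcs1 in the batch comparison were chosen after their values were seen. Intervals of counting error cover that error only. Groups were taken from the labels. The p-values set the difference between the batches against the spread between these libraries only, which may be partly technical. Genes of the lists that were missing from the table, among them Fgf2, mt-Nd4 and mt-Co3, were not analysed here, and a few other genes are not reported here.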

Additional observations from a re-analysis of the deposited data

Results flagged for a closer look

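In each of 255 items with 4 batch A values, the gap of the highest or lowest library to its neighbour was compared with the range, and 18 items had a library further from the others than Dixon's 95% critical value for 4 samples. Chance flags about 1 in 20 groups, and of the 8970 genes with a mean of at least 10 CPM 5.11% had a library apart. The items, however, include genes named for their large SD in these same libraries, among them Acan, Angptl7, Ppbp and Ptgs2. The number of flagged items can therefore not be read against chance. Of the 18, 11 were set by replicate 1. Its total of 20315934 counts lay far above the other 3. Acan at 21.4 CPM, Angptl7 at 245 CPM, P4ha1 at 483 CPM, Ppbp at 25.3 CPM and Ptgs2 at 26.6 CPM were apart on the high side in replicate 1. On the low side in replicate 1 were Cd81 at 419 CPM, Cdkn2a at 58.9 CPM, Fzd7 at 120 CPM and Nfix at 754 CPM. In replicate 2, Fmod at 8262 CPM and Lrp6 at 574 CPM were high, as was the summed level of the cartilage and tendon list at 7598 CPM, where Comp, its most abundant member, was at 6042 CPM. The summed cytoskeleton and housekeeping list was low in replicate 2 at 39426 CPM. Adipoq was high in replicate 4 at 3.74 CPM, and mt-Atp6 in replicate 3 at 0.743 CPM. Mmp10 at 0.0554 CPM in replicate 1 and Dkk1 at 0.0844 CPM in replicate 2 each rest on 1 count in a single library.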

How the results depend on the processing

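The number of genes called between batch A and batch B young MSCs was 4171 when all 11 libraries shared the fit, and 708 with a replicate block. In this block only libraries numbered 1 and 2 informed the difference, since batch A replicates 3 and 4 had no counterpart. Replicate numbers did not pair the libraries, with a correlation of deviations of -0.111 for number 1 and -0.0776 for number 2. Leaving out each library gave 511 to 4031 genes, with 511 without batch B replicate 2, 1293 without batch A replicate 3, 1726 without batch A replicate 4 and 4031 without batch B replicate 1. The other alternatives gave 2674 genes (DESeq2 size factors in edgeR), 2820 (DESeq2), 2789 (limma-trend), 2725 (a minimum count of 10), 3020 (total counts) and 3327 (no filter). The number of variable genes was 209 at a mean of at least 5 CPM and 26 at a mean of at least 50 CPM, by construction of the filter, and 29 to 206 when each library was left out, with 29 without replicate 1. For the named fold changes, the replicate block ended the calls of Col1a1, Fn1, Hif1a, Ly6a and Pgk1, and limma-trend those of Col1a1 and Fn1. DESeq2 ended the call of Laptm5. The causes were not tested. With 2 batch B libraries, 1 library can decide a call, and genes below 3 counts per library could not be measured.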
